A study of Mus musculus with 6 samples.

Results

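The mitochondrial ribosomal protein genes were compared between mouse satellite cells cultured with and without BAPN. They were taken as every gene symbol in the deposited table that starts with Mrpl or Mrps followed by a number, which gave 81 of 18864 symbols. Of these, 51 encode proteins of the large subunit, including Mrps18a and Mrps30, which were named as small subunit proteins but sit in the large subunit, and 26 encode proteins of the small subunit. Mrpl23-ps1, Mrpl48-ps and Mrps36-ps1 are pseudogenes, and Mrps36 was named as a small subunit protein but is now known as a component of the 2-oxoglutarate dehydrogenase complex. Satellite cells are the stem cells of skeletal muscle, and BAPN (beta-aminopropionitrile) inhibits the lysyl oxidases, the enzymes that cross-link collagen and elastin. Cells from the gastrocnemius muscle of C57Bl/6 mice (written C56Bl/6 in the sample labels) were grown on 4% matrigel and moved to differentiation medium. BAPN at 0.25% was present for 24 h in 3 libraries, and the 3 control libraries came from cells in the same medium without it. No transgene or deletion is named for either group. The labels give the age of the mice as 8 weeks and as 6 weeks, and the serum of the medium as 4% horse serum and as 10% fetal calf serum. Fibroblasts were reduced by repeated plating rather than by a sort, so each library is a bulk sample in which fewer cells of a type and less RNA per cell cannot be told apart.

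The mitochondrial ribosome translates the few messenger RNAs encoded by mitochondrial DNA, all of which specify subunits of the respiratory chain and ATP synthase. Its ribosomal RNAs are transcribed inside the organelle, while all its proteins are encoded in the nucleus, made in the cytosol and imported. Some of these proteins descend from bacterial ribosomal proteins and others were added during the evolution of mitochondria. Skeletal muscle raises its mitochondrial content as myoblasts differentiate.

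Total counts were between 17125602 and 18682099 per library. Replicate 3 stood apart in both groups: the chi-square per gene was 20.03 to 22.39 between replicate 3 and another library of its group, and 2.13 (BAPN) and 2.29 (control) between replicates 1 and 2. The myogenic genes were abundant, with mean normalized counts of 53100.0 for Des (desmin), 22570.0 for Myod1 and 43810.0 for Myog, the last 2 being muscle transcription factors. Of 11 myogenic markers tested, 9 fell and 0 rose with BAPN, and together they took 17420 to 20590 reads per 1000000 counted (RPM) with BAPN against 31880 to 39770 in controls. The 8 fibroblast markers took 231 to 288 RPM with BAPN and 362 to 429 in controls, and 3 of the 6 tested fell. This sum was carried by the collagen genes Col1a1, Col1a2 and Col3a1. Pdgfra had normalized counts of 85.2, 64.3 and 53.9 with BAPN against 43.8, 53.9 and 30.9 in controls. Dcn had 56.2, 59.6 and 44.6 against 42.8, 40.7 and 67.4. None of the 6 was called higher. Macrophage markers took 18 to 26.5 RPM with BAPN and 9.72 to 13.9 in controls, with Cd68 and Cd14 called higher, Itgam called lower and the defining genes Ptprc and Adgre1 at or near 0. Endothelial markers took 14.4 to 17 and 11.1 to 12.8, Schwann cell markers 10.5 to 14.8 and 9.71 to 12.6, and adipocyte markers 0.292 to 0.752 and 0.375 to 0.645 RPM, with Sox10, S100b, Adipoq and Cidec at or near 0. The smooth muscle list was carried by Acta2, which myoblasts also express, and took 1302 to 1452 against 2182 to 2675, with Myh11 and Cnn1 near 0. The part of these shifts in the results on the mitochondrial ribosomal protein genes was not tested.

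The promoters of a few of these genes are shown first, as examples of short promoter motifs, which some of the members hold and which the name rule did not use. Sequences are from RefSeq (GRCm38.p6), 5′ to 3′, and each is the 120 bases before the transcription start. Capitals mark a match, on either strand, to GCGCNTGCG, the core recognised by nuclear respiratory factor 1 (NRF1) with 1 base left free, or to CCGGAAGT, the ETS motif recognised by GABPA (nuclear respiratory factor 2). Mrpl17 (chr7:105811088-105811207, minus strand), Mrps7 (chr11:115604020-115604139, plus strand), Mrps22 (chr9:98601680-98601799, minus strand) and Mrpl3 (chr9:105053148-105053267, plus strand) are shown because they hold a match in these bases and their transcripts fell with BAPN, and Mrpl44 (chr1:79775898-79776017, plus strand) because it holds a match and was not called. Mrps10, Mrpl37, Mrpl52, Mrpl11, Mrpl2 and Mrps15 also fell and hold neither of these in the 120 bases, so the examples do not link a match to a fall. In Mrpl17 the downstream match is the full NRF1 core GCGCATGCG.
Mrpl17: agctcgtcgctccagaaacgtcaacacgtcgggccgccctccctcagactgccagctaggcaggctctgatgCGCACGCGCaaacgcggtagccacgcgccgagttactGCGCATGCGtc
Mrps7: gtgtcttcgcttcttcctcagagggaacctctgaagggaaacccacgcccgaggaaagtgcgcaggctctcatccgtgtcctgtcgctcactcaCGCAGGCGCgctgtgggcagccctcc
Mrps22: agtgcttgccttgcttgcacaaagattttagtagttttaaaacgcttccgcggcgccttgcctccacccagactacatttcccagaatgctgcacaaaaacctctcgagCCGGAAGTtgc
Mrpl3: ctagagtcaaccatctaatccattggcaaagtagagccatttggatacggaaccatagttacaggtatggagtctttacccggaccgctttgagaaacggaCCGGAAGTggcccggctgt
Mrpl44: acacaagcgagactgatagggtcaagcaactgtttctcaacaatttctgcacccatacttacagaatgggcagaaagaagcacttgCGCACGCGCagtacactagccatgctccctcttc

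RefSeq gave at least 1 promoter for 69 of the 81 members, searched over 250 bases before to 50 bases after the start. A gene with several promoters was counted once, as holding a match if any of them did. GCGCNTGCG was present in 18 of the 69 members (26.1%), against 7.12% of all 27025 genes with a promoter and 15.2% of the 10145 genes tested here that have one. The full core GCGCATGCG, whose matches are a subset of these, was in 7 (10.1%, against 1.95% and 4.10%). CCGGAAGT was in 12 (17.4%, against 4.31% and 8.96%), and AAGATGGC, the motif of the factor YY1, was in 12 (17.4%, against 3.19% and 5.26%). CACGTG, the E-box bound by MYC and by other helix-loop-helix proteins, was in 5 (7.25%, against 8.09% and 11.9%). At least 1 of GCGCNTGCG, CCGGAAGT and AAGATGGC was in 37 (53.6%, against 13.3% and 26.4%). Among members that fell and have a promoter, 20 of 35 (57.1%) held one of these, and among members not called 17 of 32 (53.1%) did. Taken singly, GCGCNTGCG was in 6 of the 35 (17.1%) and 12 of the 32 (37.5%), CCGGAAGT in 8 (22.9%) and 4 (12.5%), and AAGATGGC in 9 (25.7%) and 3 (9.38%). These differences were not tested. A match describes the letters in this window and no binding was measured.

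With BAPN, transcripts of the mitochondrial ribosomal proteins were mostly lower by a small amount. Of the 81 members, 77 passed the filter of a mean normalized count of 10, and the 4 others were the 3 pseudogenes and Mrpl53. In edgeR's quasi-likelihood test, with Benjamini-Hochberg adjustment over all 13716 genes tested and a threshold of 0.05, 40 members fell, 1 rose and 36 were not called. The 40 are 51.9% of the members tested, beside 20.8% of all genes called lower, and the 1 that rose, Mrps6, stands beside 15.6% of all genes called higher. All 3 BAPN libraries lay below all 3 controls for 51 members, against 28.5% of all genes, and above them for 1 member, against 22.4%. The groups overlapped for the other 25. None of the 77 was called with a change of 2-fold or more, against 6.93% of all genes, and the falls that were called ranged from 1.13-fold to 1.40-fold. Without both libraries of replicate 3, 55 members were lower (71.4%, beside 31.1% of all genes) and 3 higher. With replicates 1 and 2 of each group summed into 1 library, 5 were lower (6.49%, beside 5.90% of all genes) and 0 higher, so the members' share was then near that of all genes. Leaving out BAPN replicate 2 gave 25 lower (32.5%, beside 13.6%) and leaving out control replicate 1 gave 26 (33.8%, beside 14.9%).

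The median log2 fold change of the 77 members was -0.24, with quartiles of -0.33 and -0.12. Over all genes tested it was -0.03, with quartiles of -0.28 and 0.24. The members therefore lay in a narrower band, with an interquartile range of 0.21 against 0.52. The genes compared were not matched for expression level. Within same-numbered library pairs the members' median was -0.26, -0.22 and -0.22 for replicates 1, 2 and 3. The log2 fold change was negative for 68 of 77 members, and the 9 others were Mrpl14, Mrpl24, Mrpl34, Mrpl44, Mrpl45, Mrpl54, Mrps6, Mrps35 and Mrps36. Genes of a list share libraries and are not independent replicates.

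**Figure D1:**
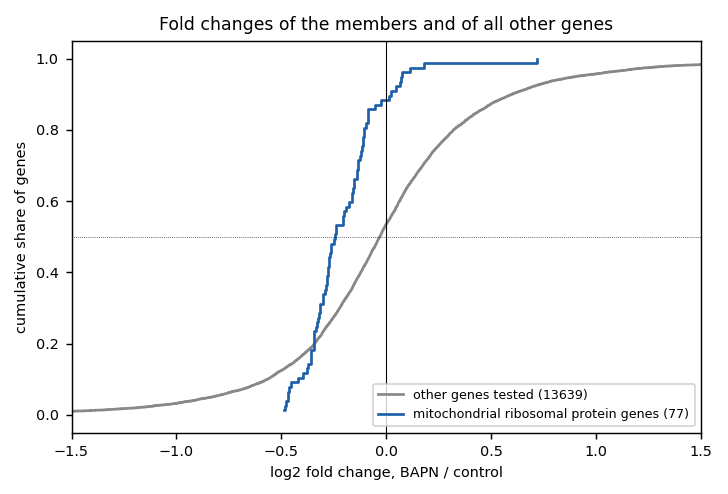
Cumulative share of genes (vertical axis) by log2 fold change, BAPN over control (horizontal axis), for the 77 mitochondrial ribosomal protein genes tested and for all other genes tested. The members' curve is steeper and reaches 50% of genes at -0.24, against -0.03 for all genes tested.

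These values depended on how the libraries were scaled. Scaled by total counts, an alternative chosen after seeing the data, the median of all genes moved from -0.03 to 0.12 and that of the members to -0.09. The members stayed 0.21 below the median of all genes with either scaling, since a scaling moves all genes alike. With total counts 9 members fell (11.7%), beside 11.0% of all genes, so the share was then near that of the background, 3 rose (Mrps6, Mrpl45 and Mrps35) and 51 of 77 log2 fold changes were negative. Summed over all 81 members, RPM values were 3294, 3240 and 3163 for BAPN against 3462, 3440 and 3155 for the controls, so that control replicate 3 was the lowest library and the groups overlapped. Summed normalized counts, on the authors' size factors, came to 56820, 56190 and 56120 for BAPN against 65900, 65070 and 63950 for the controls, and did not overlap. The share of the library taken up by myogenic transcripts, given above, differed between the groups in the same libraries, and its part in the difference between the scalings was not tested.

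Members of both subunits fell. Of 50 large subunit members tested, 25 fell (50%, beside 20.8% of all genes) and 0 rose, with a median log2 fold change of -0.22. Of 26 small subunit members, 15 fell (57.7%) and 1 rose, with a median of -0.27. Proteins with a bacterial homologue fell in 15 of 31 cases in the large subunit (48.4%, median -0.19) and in 13 of 17 in the small subunit (76.5%, median -0.28). Proteins specific to mitochondria fell in 10 of 19 cases in the large subunit (52.6%, median -0.24). In the small subunit 2 of 9 such proteins fell (22.2%, median -0.16), a share near the 20.8% of all genes. The differences between these classes were not tested.

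**Figure D2:**
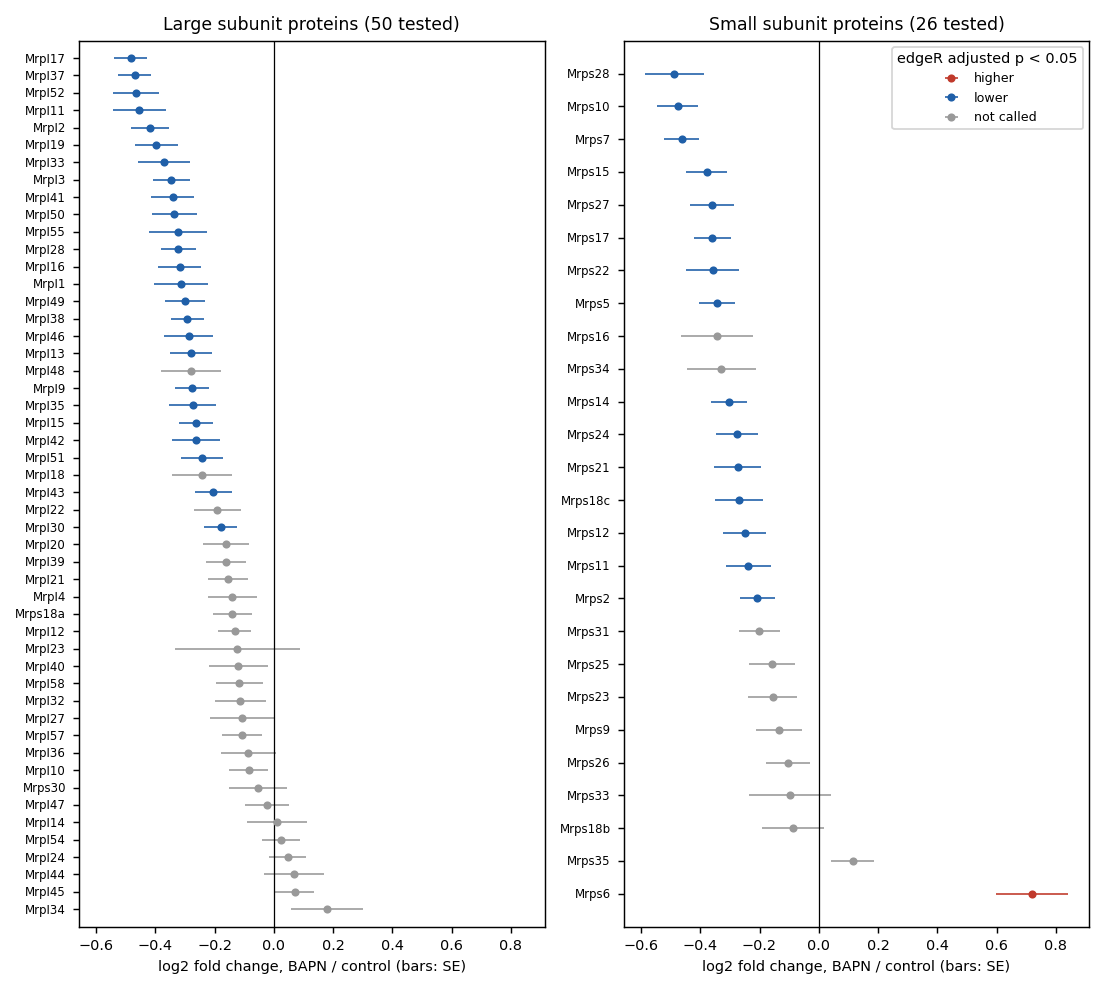
Log2 fold change, BAPN over control, with its standard error, for each of the 50 large subunit and 26 small subunit members tested, sorted within each panel and coloured by the call at an edgeR adjusted p under 0.05. All but 8 of these 76 points lie left of 0 and Mrps6 stands apart at 0.72.

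The largest fall among the small subunit members was that of Mrps28, a homologue of bacterial protein S1. Mrps28 (chr3:8802146-8923918) had normalized counts of 258, 299.9 and 319 in the BAPN libraries and 426, 401 and 401 in the control libraries (replicates 1 to 3). All BAPN libraries were below all controls, a 1.4-fold fall (log2 change of -0.49 with SE 0.10 and edgeR adjusted p = 0.0074). Mrps10 (chr17:47368887-47381417), a protein of the head of the small subunit, had 433, 442 and 462 in the BAPN libraries and 605, 646 and 609 in the control libraries. The groups were well separated (log2 change of -0.48 with SE 0.07 and edgeR adjusted p = 0.00205). Mrps7 (chr11:115603925-115608036), which binds the 12S ribosomal RNA, had 1104, 1105 and 1100.5 in the BAPN libraries and 1602, 1504 and 1454 in the control libraries. Its 3 BAPN libraries were nearly equal, at 1103 ± 2.29 for BAPN against 1520.0 ± 75.3 for the controls (SD, n = 3), and the fall was 1.38-fold (log2 change of -0.46 with SE 0.06 and edgeR adjusted p = 0.00121). Mrps15 (chr4:126046925-126055532), which lies at the interface of the subunits, had 681, 625 and 691 in the BAPN libraries and 878, 890.3 and 827 in the control libraries. It fell 1.3-fold with no overlap (log2 change of -0.38 with SE 0.07 and edgeR adjusted p = 0.00494).

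In the large subunit the fall was led by Mrpl17, a protein near the exit of the peptide tunnel, whose promoter with both NRF1 matches is shown above. Mrpl17 (chr7:105803206-105811099) had normalized counts of 1334, 1359 and 1401 in the BAPN libraries and 1842, 1915 and 1965 in the control libraries. The lowest control was above the highest BAPN library by more than the range of either group, and the fall was 1.4-fold (log2 change of -0.48 with SE 0.06 and edgeR adjusted p = 0.000828). Mrpl37 (chr4:107055874-107066868), a protein without a bacterial counterpart, had 1391, 1422 and 1433 in the BAPN libraries and 1934, 1916 and 2034 in the control libraries. It fell 1.39-fold (log2 change of -0.47 with SE 0.05 and edgeR adjusted p = 0.000834). Mrpl52 (chr14:54426909-54429756), also specific to mitochondria, had 459, 511 and 506 in the BAPN libraries and 718, 661 and 659.9 in the control libraries. BAPN replicate 1 was its lowest library (log2 change of -0.47 with SE 0.08 and edgeR adjusted p = 0.00314). Mrpl11 (chr19:4962147-4966999), which forms the base of the stalk where translation factors bind, had 695, 704 and 616 in the BAPN libraries and 1000.5, 923 and 838 in the control libraries. Replicate 3 was the lowest in each group, and the groups did not overlap (log2 change of -0.45 with SE 0.09 and edgeR adjusted p = 0.00627). Mrpl2 (chr17:46646229-46650139), a protein close to the peptidyl transferase centre, had 656, 663 and 678 in the BAPN libraries and 906, 919 and 843 in the control libraries. It fell 1.34-fold (log2 change of -0.42 with SE 0.06 and edgeR adjusted p = 0.00243). Mrpl19 (chr6:81957851-81965958), which takes part in a bridge between the subunits, had 522, 536 and 577 in the BAPN libraries and 710.1, 747 and 694 in the control libraries (log2 change of -0.40 with SE 0.07 and edgeR adjusted p = 0.00453). Gcfc2, on the opposite strand, shares 1962 exonic bases with Mrpl19 and rose by 0.71 on the log2 scale (adjusted p = 0.00814 in edgeR). The strand setting of the counting is not given in the sources used here, so reads of such pairs cannot be told apart. These 10 members were called lower in each of the 6 fits that left out 1 library. With total count scaling Mrpl11 and Mrps15 lost the call (edgeR adjusted p = 0.0591 and 0.0643). With replicates 1 and 2 summed, Mrps28, Mrps15, Mrpl11, Mrpl2 and Mrpl19 lost it.

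**Figure D3:**
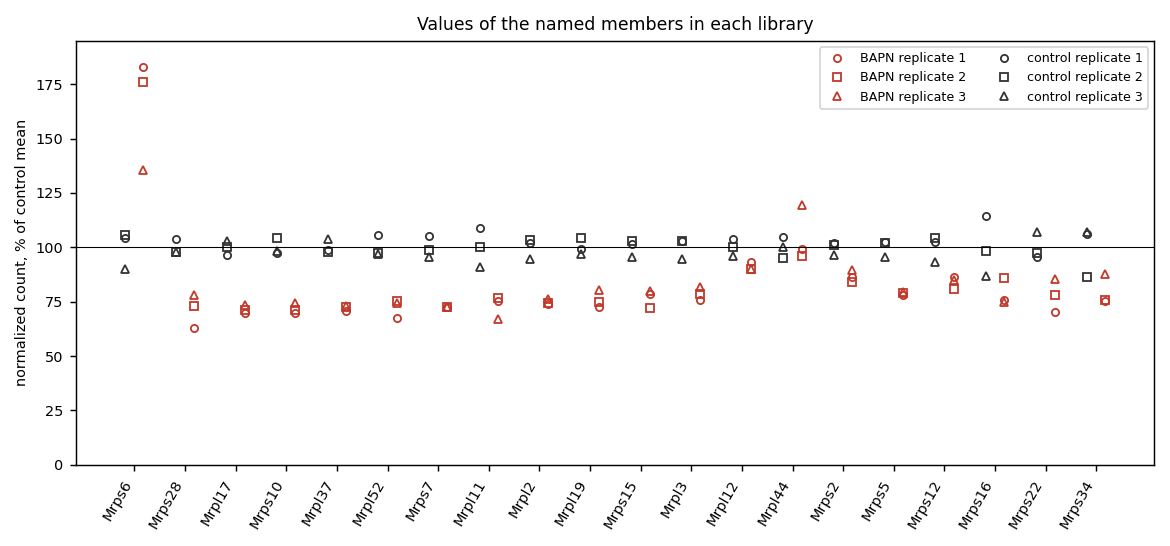
Normalized count in each of the 6 libraries of the members named for their call and of the panel members. Values are a percentage of that gene's control mean (vertical axis, from 0). BAPN is in red, controls are in black and replicates 1 to 3 are circles, squares and triangles. For the 10 members that fell most, every BAPN point lies below every control point, and for Mrps6 every BAPN point lies above.

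Other members were taken as a panel spread over the functional sites of the ribosome. Mrpl3, near the peptidyl transferase centre, had 1694, 1748 and 1823 in the BAPN libraries and 2294, 2291 and 2106 in the control libraries and fell (log2 change of -0.35 with SE 0.06 and edgeR adjusted p = 0.0044). Mrps5, at the channel through which the messenger RNA enters, had 699, 708 and 711 in the BAPN libraries and 917, 914 and 856 in the control libraries and fell (log2 change of -0.34 with SE 0.06 and edgeR adjusted p = 0.00449). Both were called in every fit that left out 1 library. Both calls were lost with total count scaling (edgeR adjusted p = 0.0744 for Mrpl3 and 0.0861 for Mrps5) and with replicates 1 and 2 summed (0.0899 and 0.0851). Mrps22, a mitochondrion-specific small subunit protein in which human mutations cause mitochondrial disease, had 593, 658 and 721 in the BAPN libraries and 805, 820.2 and 901 in the control libraries and fell (log2 change of -0.36 with SE 0.09 and edgeR adjusted p = 0.0167). With BAPN replicate 1 left out its adjusted p was 0.0569 and without BAPN replicate 2 it was 0.0575, in the same edgeR test. It was 0.0845 with total count scaling and 0.114 with replicates 1 and 2 summed. Mrps12, a protein of the decoding centre, had 555, 519.7 and 548 in the BAPN libraries and 659, 669.8 and 601 in the control libraries (log2 change of -0.25 with SE 0.07 and edgeR adjusted p = 0.0307). Mrps2, on the back of the small subunit, had 963, 937 and 999 in the BAPN libraries and 1140.1, 1129 and 1078 in the control libraries (log2 change of -0.21 with SE 0.06 and edgeR adjusted p = 0.0286). Both calls were lost when replicate 1 or 2 of either group was left out, with edgeR adjusted p between 0.0676 and 0.116 for Mrps12 and between 0.085 and 0.111 for Mrps2. They were also lost when the libraries were scaled by TMM, median ratio, upper quartile or total counts, in DESeq2 and with replicates 1 and 2 summed.

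A further 4 members of the panel were not called. Mrps16, for which human mutations have been linked to respiratory chain deficiency, had 258, 292 and 255 in the BAPN libraries and 390.2, 335 and 296 in the control libraries, with all BAPN libraries below the controls (log2 change of -0.34 with SE 0.12 and edgeR adjusted p = 0.0585). With the replicate block the edgeR adjusted p was 0.0231, and without control replicate 3 it was 0.0241, but with replicates 1 and 2 summed it was 0.215. Mrps34, a mitochondrion-specific small subunit protein, had 277, 280.3 and 324 in the BAPN libraries and 392.3, 319 and 396 in the control libraries. BAPN replicate 3 was above control replicate 2, so the groups overlapped (log2 change of -0.33 with SE 0.12 and edgeR adjusted p = 0.0577). The replicate block gave an edgeR adjusted p of 0.0164, and leaving out BAPN replicate 3 or control replicate 2 gave 0.0298 and 0.0324, but summing replicates 1 and 2 gave 0.185. Mapk8ip3, on the opposite strand, shares 1309 exonic bases with Mrps34 and was higher with BAPN by 0.48 on the log2 scale (adjusted p = 0.00547 in edgeR). Nme3, on the same strand and not among the deposited symbols, shares 763 exonic bases with Mrps34. Mrpl12, the stalk protein that recruits translation factors and that has also been reported to bind the mitochondrial RNA polymerase in humans, had 1472, 1420.3 and 1419.6 in the BAPN libraries and 1635, 1575 and 1516 in the control libraries (log2 change of -0.13 with SE 0.06 and edgeR adjusted p = 0.104). Mrpl44, a protein with an RNase III-like fold, had 466, 449.9 and 558 in the BAPN libraries and 490.1, 445 and 469.8 in the control libraries. Its highest library was BAPN replicate 3 and the groups overlapped (log2 change of 0.07 with SE 0.10 and edgeR adjusted p = 0.628). Wdfy1, on the opposite strand, shares 126 exonic bases with Mrpl44 and had a log2 change of 0.27 (adjusted p = 0.0132 in edgeR).

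The level of the members varied widely within the set. Mean normalized counts of the 77 tested ranged from 45.4 (Mrpl23) to 2038 (Mrps6), with a median of 696. Per kilobase of the longest principal transcript in GENCODE M21, the mean normalized count ranged from 65.7 (Mrpl23) to 2408 (Mrps6), with a median of 502. After Mrps6, the highest levels per kilobase were those of Mrpl42 (1935) and Mrps21 (1546). Mrpl42, specific to mitochondria, had normalized counts of 1291, 1151 and 1071 in the BAPN libraries and 1401, 1474 and 1343 in the control libraries and fell (log2 change of -0.26 with SE 0.08 and edgeR adjusted p = 0.036). Mrps21, a homologue of bacterial S21, had 722, 711 and 616 in the BAPN libraries and 826, 799 and 853 in the control libraries and fell (log2 change of -0.27 with SE 0.08 and edgeR adjusted p = 0.0296). Each call was lost in 4 of the 6 fits that left out 1 library: Mrpl42 without BAPN replicates 2 or 3 or control replicates 1 or 2 (edgeR adjusted p between 0.0609 and 0.119), and Mrps21 without BAPN replicate 2 or any single control (between 0.0595 and 0.0842). They were also lost with TMM, upper quartile or total count scaling, in DESeq2 and with replicates 1 and 2 summed, and for Mrpl42 with median-ratio scaling.

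At the low end per kilobase, after Mrpl23, stood Mrps25 (82.2) and Mrpl48 (95.8), both specific to mitochondria. Mrpl23, which lines the exit of the peptide tunnel, had normalized counts of 53.4, 32.6 and 44.6 in the BAPN libraries and 47.9, 47.8 and 46.4 in the control libraries, with overlapping groups (log2 change of -0.12 with SE 0.21 and edgeR adjusted p = 0.68). Mrps25 had 458, 508 and 449 in the BAPN libraries and 512, 532 and 536 in the control libraries (log2 change of -0.16 with SE 0.08 and edgeR adjusted p = 0.144), and shares 4590 exonic bases with Nr2c2 on the opposite strand. Mrpl48 had 358, 349 and 405 in the BAPN libraries and 452, 408 and 491 in the control libraries (log2 change of -0.28 with SE 0.10 and edgeR adjusted p = 0.0607). With the replicate block its edgeR adjusted p was 0.0142, and without BAPN replicate 3 it was 0.0281, but with replicates 1 and 2 summed it was 0.219. It shares 708 exonic bases with Rab6a on the opposite strand, which rose by 0.26 on the log2 scale (adjusted p = 0.00783 in edgeR). The pseudogenes were near 0 in every library: Mrpl23-ps1 had between 3 and 6.1 normalized counts, Mrpl48-ps between 0.9 and 5.6 and Mrps36-ps1 between 1 and 4.1. Mrps36, the 2-oxoglutarate dehydrogenase component, had 131, 138 and 128 in the BAPN libraries and 126, 114 and 137 in the control libraries, with overlapping groups (log2 change of 0.08 with SE 0.12 and edgeR adjusted p = 0.651). In all, 33 of the 81 members share exonic bases with another gene in GENCODE M21, 8 of them with a gene on the same strand, and reads of members with processed pseudogenes may also be shared.

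Mrps6, a homologue of bacterial protein S6, went the other way. Mrps6 (chr16:92058270-92112227, plus strand) had normalized counts of 2818, 2707 and 2084 in the BAPN libraries and 1605, 1629 and 1383 in the control libraries, a mean of 2536 ± 396 for BAPN against 1539 ± 136 for the controls (SD, n = 3). All BAPN libraries were above all controls, and replicate 3 was the lowest in each group. The rise was 1.65-fold (log2 change of 0.72 with SE 0.12 and edgeR adjusted p = 0.00337), and the authors' deposited table gives a log2 fold change of 0.72 with an adjusted p of 4.77e-11. The call was kept in each fit that left out 1 library and under each scaling, and was lost with replicates 1 and 2 of each group summed into 1 library (edgeR adjusted p = 0.0504).

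The Mrps6 locus is shared with Slc5a3, which encodes a sodium/myo-inositol cotransporter and was looked at after the values of Mrps6 were seen. Slc5a3 (chr16:92058322-92087473, plus strand) lies within the span of Mrps6, and 159 bases of first exon, chr16:92058322-92058480, belong to both genes. Gm49711, another protein-coding gene on the same strand, shares 305 exonic bases with Mrps6 and is not among the deposited symbols. Slc5a3 had normalized counts of 2978, 2780.1 and 1672 in the BAPN libraries and 1033, 987 and 759 in the control libraries, a 2.67-fold rise (log2 change of 1.42 with SE 0.22 and edgeR adjusted p = 0.00232). It was called under each alternative, and BAPN replicate 3 was again its lowest BAPN library. Reads in bases that Mrps6 shares with Slc5a3 or Gm49711 cannot be assigned to 1 of the genes from these counts. How far this moved the values of Mrps6 and Slc5a3 was not tested. The RefSeq starts of the pair are 14 bases apart, so the genes share 1 upstream region. The 120 bases before the Mrps6 start (chr16:92058216-92058335, plus strand, RefSeq, GRCm38.p6) are shown for this reason, with the 14 bases from the Slc5a3 start to the Mrps6 start in capitals. None of the 5 motifs searched was found in the Mrps6 window.
Mrps6: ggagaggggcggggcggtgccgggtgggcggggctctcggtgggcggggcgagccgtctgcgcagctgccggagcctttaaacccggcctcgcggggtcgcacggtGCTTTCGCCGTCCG

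**Figure D4:**
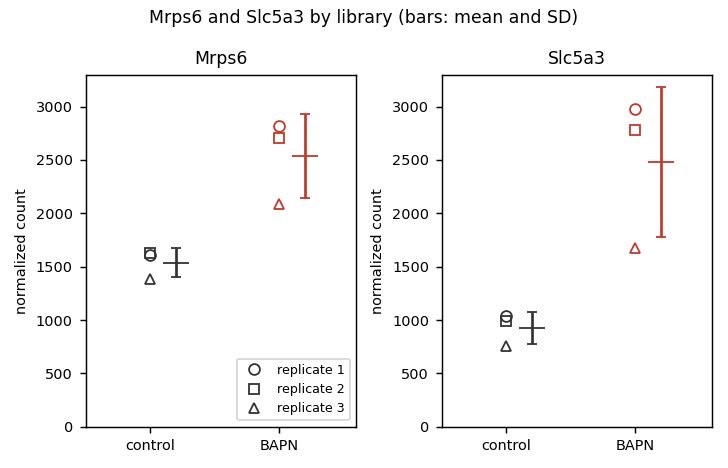
Normalized counts of Mrps6 and Slc5a3 in each library (vertical axis from 0), by group, with replicates 1 to 3 as circles, squares and triangles and the mean and SD beside them. Every BAPN library is above every control for both genes, and replicate 3 is lowest in each group.

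Other proteins of the same ribosome, whose symbols do not follow the name rule, were taken as a companion list. Of 8 listed, 5 were among the genes tested. Of these, 4 fell (80%, beside 20.8% of all genes) and 1 rose (20%, beside 15.6%). Aurkaip1 (mS38) had normalized counts of 916, 899.7 and 930.5 in the BAPN libraries and 1379.5, 1315 and 1374 in the control libraries and fell 1.48-fold (log2 change of -0.57 with SE 0.06 and edgeR adjusted p = 0.000432), a larger fall than any estimated for the 77 members. Ptcd3 (mS39) fell by 0.46 (edgeR adjusted p = 0.00116) and Chchd1 (mS37) by 0.41 (edgeR adjusted p = 0.0104), both in log2 units. The call of Chchd1 was lost with total count scaling (edgeR adjusted p = 0.0764) and with replicates 1 and 2 summed (0.0947). Gadd45gip1 and Dap3 were the others, named after their values were seen. Gadd45gip1 (mL64) changed by -0.31 in log2 units (edgeR adjusted p = 0.0147, and 0.0614 without BAPN replicate 2). Its edgeR adjusted p was 0.158 with total count scaling and 0.115 with replicates 1 and 2 summed. Dap3 (mS29) had 1658, 1637 and 1652 in the BAPN libraries and 1464, 1491 and 1387 in the control libraries and was higher (log2 change of 0.19 with SE 0.06 and edgeR adjusted p = 0.0314). Its call was lost in 5 of the 6 fits that left out 1 library, all but that without BAPN replicate 3, with edgeR adjusted p between 0.0631 and 0.0922.

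The ribosomal RNAs that these proteins bind differed from each other. The 16S ribosomal RNA of the large subunit, mt-Rnr2, had normalized counts of 79732, 77168 and 77317 in the BAPN libraries and 152924, 140543 and 157877 in the control libraries. It fell 1.93-fold (log2 change of -0.95 with SE 0.08 and edgeR adjusted p = 0.000271), and was called under each alternative. The 12S ribosomal RNA of the small subunit, mt-Rnr1, had 21722, 19859.6 and 23282 in the BAPN libraries and 17963, 18840.4 and 20892 in the control libraries. The groups overlapped (log2 change of 0.17 with SE 0.09 and edgeR adjusted p = 0.17). With the replicate block mt-Rnr1 was called higher (edgeR adjusted p = 0.0392), and with total count scaling as well (0.0113). Of the 10 mitochondrial transcripts tested, mt-Rnr2 was the single one called, with a median log2 fold change of -0.10, and the messenger RNA of cytochrome b, mt-Cytb, had 101314, 103177 and 84468 in the BAPN libraries and 99552, 104579.7 and 126413 in the control libraries (log2 change of -0.19 with SE 0.12 and edgeR adjusted p = 0.25). The median of the 10 within library pairs was 0.12, 0.06 and -0.44 for replicates 1, 2 and 3, so replicate 3 differed in sign from the other pairs. Without both libraries of replicate 3, 5 of the 10 were called higher, in a fit that called 3223 of all 13716 genes tested higher.

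Genes that act with the mitochondrial ribosome were followed in further lists, with log2 changes of named genes in parentheses. Of 13 mitochondrial translation factors, 5 fell (38.5%, beside 20.8% of all genes) and 0 rose (median log2 fold change -0.19). They included the elongation factors Gfm1 (-0.39, edgeR adjusted p = 0.00271) and Tufm (-0.34, edgeR adjusted p = 0.0186) and the initiation factor Mtif2 (-0.33, edgeR adjusted p = 0.0045). The count dropped to 3 without BAPN replicate 1 or 2, fits in which 14.5% and 13.6% of all genes were lower. It was 2 without control replicate 1 or 2, fits in which 14.9% and 16.1% of all genes were lower. In the last pair of fits Tufm also lost its call (edgeR adjusted p = 0.0652 and 0.0629). Of 27 assembly factors and ribosomal RNA modifiers, 5 fell and 1 rose (median -0.14), a share of lower calls (18.5%) under that of all genes. The ribosomal RNA methyltransferases Mrm2 (-0.47) and Mrm3 (-0.36) and the GTPase Eral1 (-0.25), which binds the 12S ribosomal RNA, fell, and Mterf3, named after its values were seen, was higher (0.30). With TMM scaling 1 of the 27 was called lower, beside 17.4% of all genes. None was called lower without BAPN replicate 1 or 2, 1 was without control replicate 1 or 2, and Mterf3 lost its call without any of these 4 libraries or BAPN replicate 3. Of 24 genes of mitochondrial transcription and RNA processing, 6 fell and 0 rose (median -0.07), and the share that fell (25%) was close to the 20.8% of all genes. The 6 included the tRNA-processing nuclease Elac2 (-0.52), and Lrpprc (-0.48) and Slirp (-0.41), partners that stabilise mitochondrial messenger RNAs. That count was 3 without BAPN replicate 2 or control replicate 1, fits in which 13.6% and 14.9% of all genes were lower. With the replicate block, 2 assembly factors and 1 gene of transcription and RNA processing were called higher, beside 2790 of all 13716 genes tested.

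Other nuclear genes for mitochondrial proteins were counted in the same way, again with log2 changes in parentheses. In protein import, 12 of 27 fell (44.4%, beside 20.8% of all genes) and 0 rose (median -0.20), among them Timm50 (-0.48), Tomm70a (-0.45) and Pmpca (-0.42), a receptor of the inner membrane, a receptor of the outer membrane and a subunit of the presequence peptidase. The count was 7 without BAPN replicate 1 or control replicate 2, fits in which 14.5% and 16.1% of all genes were lower. It was 6 without control replicate 1, where 14.9% of all genes were lower. In the citrate cycle, 7 of 21 fell (33.3%) and 0 rose (median -0.16), including Dlst (-0.37), Suclg1 (-0.32) and Suclg2 (-0.53). The count was 11 with the replicate block, a fit in which 27.0% of all genes were lower. It was 4 without BAPN replicate 2, a fit in which 13.6% of all genes were lower. Of 7 core subunits of complex I, the NADH dehydrogenase, 4 fell (57.1%, median -0.23), including Ndufv1 (-0.41) and Ndufs1 (-0.37). Of 13 chaperones and proteases, 6 fell (46.2%) and 1 rose (median -0.20). The 1 that rose was the matrix protease Lonp1, with 4074, 4038 and 5462 in the BAPN libraries and 2019, 1898 and 1913 in the control libraries (log2 change of 1.22 with SE 0.12 and edgeR adjusted p = 0.000406), while the protease Htra2 (-0.77) and the chaperone Trap1 (-0.39) fell. With the replicate block, 1 import gene and 2 chaperones or proteases were called higher, beside 2790 of all 13716 genes tested.

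**Figure D5:**
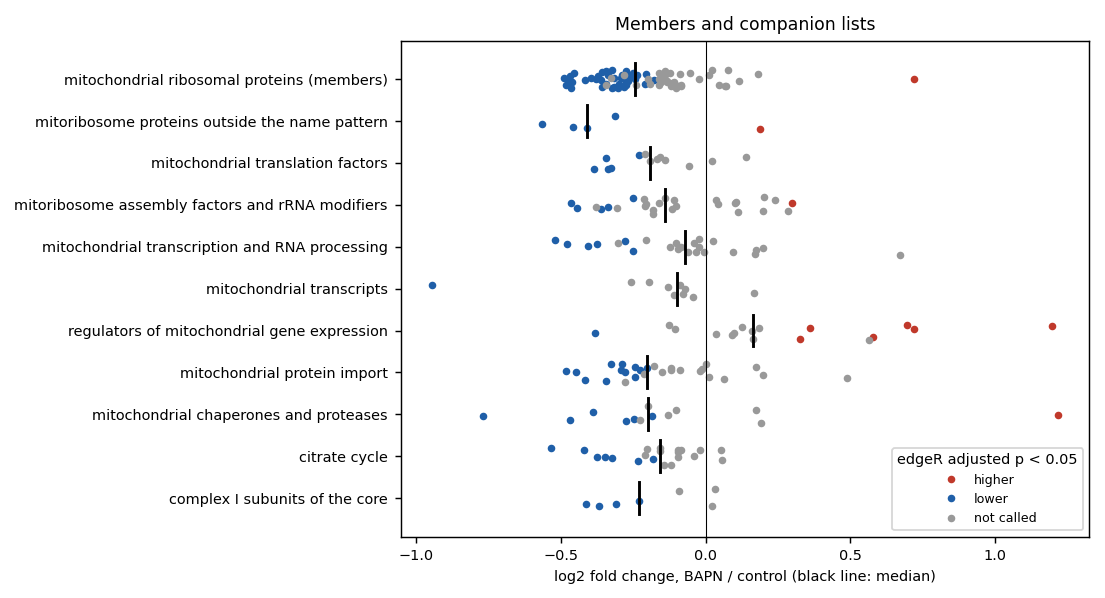
Log2 fold change, BAPN over control, of each tested gene (points) in the mitochondrial ribosomal protein genes and in the 10 companion lists, coloured by the edgeR call, with the list median as a black line. The medians of 9 lists lie below 0, between -0.41 and -0.07, and that of the regulators lies at 0.16.

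Of 17 genes for regulators of mitochondrial gene expression, 6 rose (35.3%, beside 15.6% of all genes), 1 fell and 10 were not called. The median log2 fold change was 0.16, with 14 values above 0 and 3 below. With the replicate block 10 rose, in a fit that called 2790 of all 13716 genes tested higher. Ppargc1a, the coactivator PGC-1alpha, had normalized counts of 1028, 856 and 860.1 in the BAPN libraries and 557, 532 and 576 in the control libraries (log2 change of 0.72 with SE 0.09 and edgeR adjusted p = 0.00107). Gabpb2, a partner of GABPA, had 569.5, 501 and 551 in the BAPN libraries and 341, 333 and 325 in the control libraries (log2 change of 0.70 with SE 0.08 and edgeR adjusted p = 0.000804). Myc had 1390.0, 1319 and 2134 in the BAPN libraries and 705, 780.5 and 621 in the control libraries, with BAPN replicate 3 the highest (log2 change of 1.20 with SE 0.19 and edgeR adjusted p = 0.00249). The following were named after their values were seen. Perm1, Ppard and Nfe2l1 rose, and Pprc1, a relative of PGC-1alpha, fell (log2 change of -0.38 with SE 0.10 and edgeR adjusted p = 0.0218). The calls of Perm1 (without BAPN replicate 1 or 2 or control replicate 1), Nfe2l1 (without control replicate 1 or 2) and Pprc1 (without BAPN replicate 1 or 2 or control replicate 1 or 2) were lost, with edgeR adjusted p between 0.0527 and 0.0761. The genes for NRF1, YY1 and GABPA were not called. Nrf1 had 779, 811 and 788 in the BAPN libraries and 804, 775 and 739.5 in the control libraries (log2 change of 0.04 with SE 0.06 and edgeR adjusted p = 0.688). Yy1 had 2463, 2274 and 2399 in the BAPN libraries and 2183, 2210.5 and 2302 in the control libraries (log2 change of 0.09 with SE 0.06 and edgeR adjusted p = 0.253). Gabpa had 1964, 1908 and 1991 in the BAPN libraries and 1781, 1669.8 and 1792 in the control libraries, all BAPN libraries above the controls (log2 change of 0.16 with SE 0.06 and edgeR adjusted p = 0.0578), and it was called higher with the replicate block (edgeR adjusted p = 0.0315), with each of the other 4 scalings (0.0241 with TMM) and in DESeq2. Tfam, which packages and helps transcribe mitochondrial DNA, had 603, 621 and 780.3 in the BAPN libraries and 743, 664 and 744 in the control libraries (log2 change of -0.10 with SE 0.11 and edgeR adjusted p = 0.501).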

How the data were processed

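The authors deposited, per the file headers, a raw count per gene symbol in each of the 6 libraries, normalized counts (a signal that equals the count divided by 1 size factor per library) and their own comparison with log2 fold change, ratio (signed fold change), p-value and adjusted p-value. The tools named in the submitters' processing notes are DESeq2, HTSeq, STAR and cutadapt, with GRCm38 (mm10) as the build. Neither their versions nor the annotation or strandedness of counting is given in the sources used here. Reads were single reads of 60 nt, per the labels' protocols, and RNA integrity numbers were mostly above 8.1, but below 7.5 in 2 unidentified samples.

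Groups and replicate numbers were taken from the labels. Raw counts of the 13716 genes with a mean deposited normalized count of at least 10 were fitted in edgeR 4.0.16 (R 4.3.3; glmQLFit and glmQLFTest, no block), scaled by the authors' size factors, with Benjamini-Hochberg adjustment over all genes tested and calls under 0.05. Fold changes are edgeR estimates. The series description calls the replicates independent. Other fits used TMM, median-ratio, upper quartile and total count scaling, no filter, a filter at 50, DESeq2 1.42.0, the replicate number as a block, each library left out, replicates 1 and 2 summed, and replicate 3 left out. The script was tested on simulated data.

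After the group means were subtracted, libraries with the same number correlated at 0.178, 0.185 and 0.361 across genes. All were above 0.1, the rule used here for treating the numbers as pairs. The main fit was set without the block, and the blocked value is given where it changes a call. BAPN replicate 1 correlated more with control replicate 2 (0.223), and BAPN replicate 2 with control replicate 1 also passed 0.1 (0.104). The rule therefore does not separate replicates 1 and 2. The chi-square per gene between replicates 1 and 2 was 2.13 with BAPN and 2.29 in controls, which is more than sampling noise, and they were kept as separate libraries.

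Members, lists and tests were chosen with earlier results of these data known. Named members were all called members of a direction, or, above 12, the 10 with the largest absolute log2 fold change and a mean normalized count of at least 100, then the 3 highest and 3 lowest per length, a panel of 11, the 3 of each companion list with the smallest p, and members that are pseudogenes or no mitochondrial ribosomal protein. A gene that this rule names in a companion list is not reported here. Positions are whole-gene spans (GRCm38, GENCODE M21, possibly another release than the authors used), and 18303 of 18864 symbols matched it once. Overlaps with other genes were looked up for all members. The columns of samples outside the series numbered 0.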

Additional observations from a re-analysis of the deposited data

How the results depend on the processing

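Of the 40 members called lower, 23 were called lower in each of the 6 fits that left out 1 library. In the fits with TMM, median-ratio and upper quartile scaling and DESeq2, 27, 32, 28 and 27 were, and 27 were in all of these fits. All 40 were with the replicate block, which called 45 (58.4%, beside 27.0% of all genes) and added Mrpl18, Mrpl48, Mrps16, Mrps31 and Mrps34. The block changed no other member's call. Leaving out 1 library gave between 25 and 41 members lower (25 without BAPN replicate 2, 26 without control replicate 1) and 1 higher each time. Total count scaling gave 9 lower and 3 higher. Replicates 1 and 2 summed, with 2 libraries a group, gave 5 lower (Mrpl17, Mrpl37, Mrpl52, Mrps7 and Mrps10) and 0 higher. Without both libraries of replicate 3, 55 were lower and 3 higher (Mrps6, Mrpl34 and Mrpl45). The median log2 fold change of the members was -0.20 with TMM, -0.21 with median-ratio, -0.20 with upper quartile and -0.0914 with total count scaling, -0.20 in DESeq2, and between -0.25 and -0.22 with 1 library left out. For the large subunit it was -0.18, -0.19, -0.18 and -0.0694 with these scalings, -0.18 in DESeq2, -0.24 with no filter or a filter at 50, and between -0.24 and -0.20 with 1 library left out. For the small subunit it was -0.23, -0.24, -0.23 and -0.12, -0.23 in DESeq2, and between -0.29 and -0.24. The shifts with scaling follow from its construction, which moves all genes alike. The authors' deposited table has 35 of the 77 members lower and 1 higher at an adjusted p under 0.05. The share of all genes called in that comparison was not counted, so these numbers have no background beside them. Members under a mean normalized count of 10 were too shallow to test.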
